A study of Rattus norvegicus with 16 samples.

Results

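Genes that mark oligodendrocyte precursor cells in the brain, 8 in number, were followed over hippocampus and frontal cortex of young and old rats: Pdgfra, Cspg4, Olig1, Olig2, Sox10, Gpr17, Vcan and Ptprz1. They were taken by gene symbol from the deposited value table, which holds 42 spots for these 8 genes among 45904 spots with a listed gene and 16974 genes. Messenger RNA was measured with one-colour Agilent rat arrays, 1 array per sample, on RNA from brains of male LOU/C/Jall rats, an inbred strain, with no treatment compared. There were 4 groups of 4 arrays: young hippocampus, old hippocampus, young frontal cortex and old frontal cortex. Old rats were 26 months old by both sources. For young rats the sample labels state 5 months and the series design text states 3 months. Arrays are named by the letter codes of their titles, which are Y, Z, AA and AB in both young groups and AF, AG, AH and AI in both old groups. The labels do not say that a code is 1 animal, so each p-value measures only how far these arrays spread, which may be technical.

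Oligodendrocyte precursor cells are the proliferating glial cells of the adult brain that give rise to myelinating oligodendrocytes. They carry the PDGF receptor alpha (Pdgfra) and the NG2 proteoglycan (Cspg4) on their surface, and they lose both as they differentiate. The transcription factors Olig1, Olig2 and Sox10 act throughout the lineage and stay on in mature oligodendrocytes. Gpr17, a G protein-coupled receptor, marks the committed stage between precursor and myelinating cell, while versican (Vcan) and the receptor phosphatase Ptprz1 belong to the matrix and cell surface of precursors. Several of these genes are active in other cells too: Pdgfra in fibroblasts of the meninges, Cspg4 in pericytes and Ptprz1 in astrocytes. In whole tissue, fewer cells of a type and less RNA per cell cannot be told apart.

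RefSeq promoter windows of the GRCr8 assembly, from 250 bases before to 50 bases after a transcript start, were matched by symbol for 5 of the 8 genes, namely Pdgfra, Cspg4, Olig2, Gpr17 and Vcan. The windows of Olig2 (chr11:43961335-43961634, plus strand) and Pdgfra (chr14:33408467-33408766, minus strand) are shown because these genes are the lineage factor and the surface receptor by which precursors are most often recognised. Capitals mark CANNTG, the E-box letters bound by helix-loop-helix factors such as Olig1 and Olig2, and CCAAT on either strand.
Olig2: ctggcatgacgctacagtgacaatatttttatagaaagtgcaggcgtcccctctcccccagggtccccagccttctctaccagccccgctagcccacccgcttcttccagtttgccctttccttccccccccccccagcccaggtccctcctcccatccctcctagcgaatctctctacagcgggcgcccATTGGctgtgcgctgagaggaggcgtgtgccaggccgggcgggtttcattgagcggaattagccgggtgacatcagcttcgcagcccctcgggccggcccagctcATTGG
Pdgfra: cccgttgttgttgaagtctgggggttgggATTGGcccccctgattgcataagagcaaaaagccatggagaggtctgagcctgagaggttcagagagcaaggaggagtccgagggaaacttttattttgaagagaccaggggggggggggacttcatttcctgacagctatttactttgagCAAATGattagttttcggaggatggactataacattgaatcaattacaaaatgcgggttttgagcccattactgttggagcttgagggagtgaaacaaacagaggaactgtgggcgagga
Both strands were searched for CANNTG, for ACAAAG or ACAATG (letters of SOX factor sites) and for CCAAT, the last chosen after the sequences were seen. No matches of different motifs overlapped. The Olig2 window held 2 CCAAT matches, both read as ATTGG on the printed strand, and 0 matches to the other motifs. The Pdgfra window held 1 CCAAT match, also as ATTGG, and 1 CANNTG match, CAAATG. Among all 33469 windows of the table, 72.1% held CANNTG, 29.1% held ACAAAG or ACAATG, and 37.5% held CCAAT. The Olig2 window was 63.3% G or C with 16 CpG sites and the Pdgfra window 48.0% with 5, against a median of 51.7% over all windows. These are descriptions of letters only, and no binding was measured.

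Levels below are log2 signals on the deposited scale, where a difference of 1 is a 2-fold change, and each gene is represented by its brightest spot. Of the 8 genes, 7 passed the filter on dim genes, with 38 of the 42 spots. Gpr17 had only 1 spot, with a mean of 6.32. Its highest group mean, 6.44 in old hippocampus, was just under the minimum of 6.49, so it was not tested with the rest. Negative control spots averaged 4.99, and the group means of each gene that passed lay at least 2.56 above this. A gene was called when limma gave an adjusted p under 0.05 over the 10056 genes tested. Neuronal markers were read beside the regional labels. All 6 hippocampal neuron genes that passed the filter, out of 11 listed, were called higher in hippocampus, against 14.4% of all genes. Of 7 cortical neuron genes, 5 were called higher in frontal cortex, also against 14.4% of all genes. The other cortical genes, Bhlhe22 and Rspo1, were called higher in hippocampus by 2.12 and 0.65. Dsp of the hippocampal list and Rspo1 passed the filter only through hippocampus, and Rprm of the cortical list only through frontal cortex. The direction of these genes is partly set by the filter. Marker lists of tissue next to the dissected regions varied between arrays of a group, and the amount of such tissue was not measured. Relative to the mean of the same region, the choroid plexus list ranged from -1.99 to 2.27 in hippocampus. The striatal neuron list stood at -0.97 and -0.96 on young frontal cortex arrays Y and Z and at 1.42 on old frontal cortex array AG. Values of these lists stand beside the genes they move with.

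Pdgfra, the receptor through which PDGF drives precursor division and survival, had much the same level in all 4 groups. On young hippocampus arrays Y, Z, AA and AB the level of Pdgfra was 10.30, 10.05, 9.92 and 9.98, and on old hippocampus arrays AF, AG, AH and AI it was 10.16, 10.01, 10.17 and 10.27. In frontal cortex, in the same order of codes, Pdgfra was 10.22, 10.15, 9.84 and 10.14 on young arrays and 9.96, 9.73, 10.10 and 9.95 on old arrays. The highest young hippocampus array exceeded every old one, the other young hippocampus arrays lay at or below the middle of the old ones, and the frontal cortex groups overlapped as well. The group means ± SD (n = 4) were 10.06 ± 0.17 (young) and 10.16 ± 0.11 (old) for hippocampus, then 10.09 ± 0.17 (young) and 9.93 ± 0.15 (old) for frontal cortex. Neighbours in the order of these means, from old hippocampus down to old frontal cortex, all overlapped.

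Cspg4, the NG2 proteoglycan, was slightly brighter in frontal cortex than in hippocampus, within the spread of the arrays. The level of Cspg4 was 10.67, 10.57, 10.11 and 10.35 on young and 10.68, 10.47, 10.45 and 10.29 on old hippocampus arrays. In frontal cortex the level of Cspg4 was 10.51, 10.72, 10.63 and 10.62 on young and 10.47, 10.73, 10.47 and 10.56 on old arrays. Young hippocampus spanned the widest range and held the lowest array of the 16, AA, and all 4 groups overlapped. Mean levels of Cspg4 were 10.42 ± 0.25 and 10.47 ± 0.16 in young and old hippocampus, then 10.62 ± 0.087 and 10.56 ± 0.12 in young and old frontal cortex (SD, n = 4).

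Olig1, a helix-loop-helix factor of the lineage that is needed for remyelination in mice, was lowest in young frontal cortex. In hippocampus the level of Olig1 was 12.37, 12.04, 12.15 and 11.78 on young and 11.79, 12.20, 12.37 and 12.23 on old arrays. In frontal cortex it was 11.48, 11.34, 11.67 and 11.81 on young and 11.94, 12.21, 11.73 and 11.69 on old arrays. Of the young frontal cortex arrays only AB reached the range of the hippocampus arrays, and old arrays AF and AG lay within it. Olig1 averaged 12.09 ± 0.25 and 12.15 ± 0.25 in young and old hippocampus, against 11.58 ± 0.21 and 11.89 ± 0.24 in young and old frontal cortex (SD, n = 4).

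Olig2, the factor that specifies the lineage, showed the same order of regions with smaller gaps. The level of Olig2 was 9.49, 9.79, 9.57 and 9.32 on young and 9.57, 9.39, 9.89 and 9.62 on old hippocampus arrays. On frontal cortex arrays Olig2 was 9.33, 9.21, 9.46 and 9.57 in young rats and 9.75, 9.66, 9.29 and 9.42 in old rats. Every group overlapped every other. Olig2 averaged 9.54 ± 0.19, 9.62 ± 0.20, 9.39 ± 0.15 and 9.53 ± 0.22 (SD, n = 4), in the order used for Cspg4.

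Sox10, the SOX factor that switches on myelin genes in this lineage, varied more from array to array than any other of the 7 genes by the size of its standard errors. Sox10 levels were 10.77, 11.15, 10.77 and 10.43 on young and 10.41, 11.12, 11.26 and 11.06 on old hippocampus arrays. In frontal cortex the level of Sox10 was 10.31, 10.01, 10.71 and 10.81 on young and 10.71, 11.42, 10.38 and 10.63 on old arrays. The lowest value of all was on young frontal cortex array Z and the highest on old frontal cortex array AG. These are also arrays where the myelin list stood at its lowest and highest in frontal cortex, -0.50 and 0.68 from the regional mean. The means of Sox10 were 10.78 ± 0.30, 10.96 ± 0.38, 10.46 ± 0.37 and 10.79 ± 0.45 (SD, n = 4) in the same order.

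Gpr17 was dim on these arrays. Its level was 6.18, 6.23, 6.31 and 6.15 on young and 6.78, 6.10, 6.28 and 6.60 on old hippocampus arrays. In frontal cortex Gpr17 stood at 6.38, 6.32, 6.40 and 6.35 on young and 6.05, 6.49, 6.18 and 6.38 on old arrays. The young groups spread little and the old groups more, with old hippocampus arrays AF and AI above every other array and the ages overlapping in both regions. With the filter on dim genes removed, Gpr17 in old hippocampus was 0.22 ± 0.13 log2 (SE) above young, with a limma adjusted p of 0.878 over 16974 genes. In frontal cortex the difference was -0.086 (limma adjusted p = 0.809).

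Vcan, a large proteoglycan of the extracellular matrix, had nearly the same level everywhere. It was 7.50, 7.72, 7.88 and 7.50 on young and 7.46, 7.79, 7.74 and 7.46 on old hippocampus arrays. On frontal cortex arrays Vcan was 7.71, 7.43, 7.47 and 7.61 in young and 7.59, 7.69, 7.84 and 7.52 in old rats. All 4 groups overlapped. The means of Vcan were 7.65 ± 0.18, 7.61 ± 0.18, 7.56 ± 0.13 and 7.66 ± 0.14 (SD, n = 4) in the same order.

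Ptprz1, a receptor-type tyrosine phosphatase that binds pleiotrophin and matrix proteins, separated the regions in old rats. In hippocampus the level of Ptprz1 was 10.42, 10.67, 10.41 and 10.17 on young and 10.62, 10.59, 10.65 and 10.60 on old arrays. In frontal cortex Ptprz1 was 10.44, 10.16, 10.38 and 10.40 on young and 10.27, 10.20, 10.22 and 10.20 on old arrays. All 4 old hippocampus arrays lay above all 4 old frontal cortex arrays, and the young regions overlapped. Among all genes, 17.3% had old regions that did not overlap. The SD of the old groups was smaller than that of the young on this spot, while on the mean of both spots it was 0.088 in old and 0.11 in young frontal cortex. The means of Ptprz1 were 10.42 ± 0.20 and 10.61 ± 0.027 in young and old hippocampus, against 10.35 ± 0.12 and 10.22 ± 0.031 in young and old frontal cortex (SD, n = 4).

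**Figure D1:**
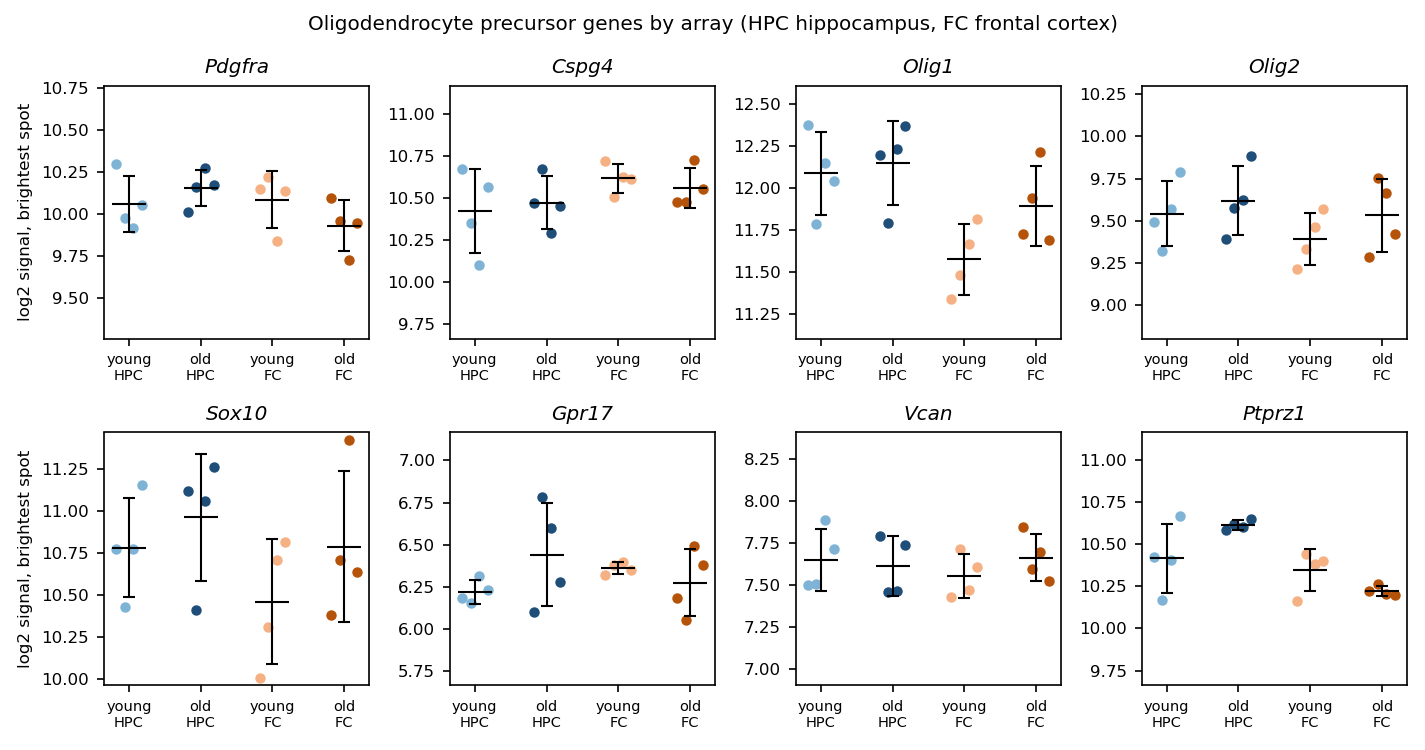
Level of each of the 8 genes on every array, as the log2 signal of its brightest spot, in young and old hippocampus (HPC) and young and old frontal cortex (FC). Points are arrays, horizontal bars are group means and whiskers are 1 SD (n = 4), and every panel spans the same log2 range. Ptprz1 in old rats is the clearest gap of these genes, from 10.59 or more in hippocampus to 10.27 or less in frontal cortex. Among all genes, 17.3% had old regions that did not overlap.

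Age was compared first in hippocampus, to ask which of these genes differ between young and old rats. None of the 7 tested genes was called (limma), where 0.0398% of all genes were, 4 of 10056. At an unadjusted p under 0.05 the count was 1 of the 7, against 6.77% of all genes. Old minus young differences were positive for 6 genes, against 52.9% of all genes, and negative for Vcan, with a median of 0.076 against 0.010 over all genes. On the mean of all kept spots of a gene, the positive differences were 4 of 7, since Pdgfra gave -0.048 and Cspg4 -0.026. Ptprz1 differed by 0.20 ± 0.093 log2 on its brightest spot (SE, 95% interval 0.0013 to 0.40, limma adjusted p = 0.729) and by 0.030 on its other spot. The receptor Pdgfra differed by 0.094 with an interval from -0.14 to 0.32. Olig1, Olig2 and Sox10 differed by 0.060, 0.076 and 0.18, with the interval of Sox10 reaching from -0.32 to 0.68. The old and young arrays of all 7 genes overlapped, where 4.56% of all genes had arrays that did not.

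In frontal cortex old and young rats were compared in the same way. Here, too, 0 of the 7 genes were called (limma), while 0.965% of all genes were, 97 in number. That number ran from 4 without young array Z to 739 without old array AI. At an unadjusted p under 0.05 there were 0 of the 7, against 22.2% of all genes. Differences were positive for 4 genes, Olig1, Olig2, Sox10 and Vcan, against 50.2% of all genes, and negative for Pdgfra, Cspg4 and Ptprz1, with a median of 0.11 against 0.0010 over all genes. Olig1 differed by 0.32 ± 0.15 log2 (SE, interval -0.010 to 0.65, limma adjusted p = 0.240) and Sox10 by 0.33 ± 0.24 (interval -0.17 to 0.83, limma adjusted p = 0.432). Pdgfra differed by -0.15 ± 0.11 (interval -0.38 to 0.075, limma adjusted p = 0.418). Old and young arrays of all 7 genes overlapped, where 12.8% of all genes had arrays that did not. Leaving out old array AG, the one with the high myelin and striatal list means, brought the Olig1 difference to 0.21 and that of Sox10 to 0.12. Without young arrays Y and Z they were 0.15 and 0.028, and without arrays AF and AG of both regions 0.14 and 0.049.

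The age effect in hippocampus was then set against that in frontal cortex with an interaction term. No gene was called among the 7 or among all 10056 (0%, limma). At an unadjusted p under 0.05 the term gave 1 of the 7 genes, against 2.65% of all. That gene was Ptprz1, whose age effect was 0.32 ± 0.13 log2 (SE) more positive in hippocampus than in frontal cortex (limma adjusted p = 0.999). On the other Ptprz1 spot the same term was 0.024. The term was positive for 3 of the 7 genes, against 54.3% of all. Pdgfra gave 0.25 (interval -0.075 to 0.57) and Olig1 -0.26 (interval -0.72 to 0.21).

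Hippocampus and frontal cortex were compared over both ages, to ask which of these genes differ between the regions. Olig1 and Ptprz1 were called, both higher in hippocampus, so that 2 of 7 genes were called where limma called 28.8% of all genes. Higher calls alone made up 14.4% of all genes. Olig1 was 0.38 ± 0.11 log2 (SE) higher in hippocampus, a fold of 1.30 (interval 0.15 to 0.61 log2, limma adjusted p = 0.0153). Ptprz1 was 0.23 ± 0.066 log2 higher, a fold of 1.17 (interval 0.092 to 0.37 log2, limma adjusted p = 0.0146). The 8 hippocampus and 8 frontal cortex arrays overlapped for both genes, as for the other 5, where 8.73% of all genes had arrays that did not.

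Of the genes not called between regions, Sox10, Olig2, Pdgfra and Vcan had positive differences of 0.25, 0.12, 0.099 and 0.023 log2, and Cspg4 had a negative one of -0.14. Positive differences thus made up 6 of 7, against 50.6% of all genes. Their limma adjusted p ranged from 0.226 to 0.862. The interval of Sox10 ran from -0.11 to 0.60, that of Pdgfra from -0.063 to 0.26 and that of Cspg4 from -0.31 to 0.035. The median of the 7 genes was 0.12, against 0.0031 over all genes. Within the ages, Olig1 stood 0.51 higher in young and 0.25 higher in old hippocampus. Ptprz1 stood 0.071 higher in young and 0.39 higher in old hippocampus on its brightest spot, and 0.33 and 0.35 higher on its other spot, so the gap in young rats depends on the spot. In old rats the regions did not overlap for 1 of the 7 genes, Ptprz1, against 17.3% of all genes. In young rats they did not overlap for 0 of the 7, against 24.2%.

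The calls of Olig1 and Ptprz1 between regions held with each of the 16 arrays left out in turn. They were both lost without young frontal cortex arrays Y and Z, where Olig1 was 0.30 higher (limma adjusted p = 0.101) and Ptprz1 0.21 higher (limma adjusted p = 0.0601). Those arrays had the lowest myelin list means of frontal cortex, -0.47 and -0.50, low striatal means and the highest means of the list for meninges, pericytes and smooth muscle, 0.67 and 0.89. Without arrays AF and AG of both regions Ptprz1 was not called (0.24, limma adjusted p = 0.0578) and Sox10 was (0.49 higher in hippocampus, limma adjusted p = 0.0372). Astrocytes also express Ptprz1, and 16 of 18 astrocyte genes had positive regional differences (50.6% of all genes), 6 of them called (14.4% of all genes called higher), among them Gfap (1.10) and Aqp4 (0.60). The part of other cells in these regional differences was not tested.

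**Figure D2:**
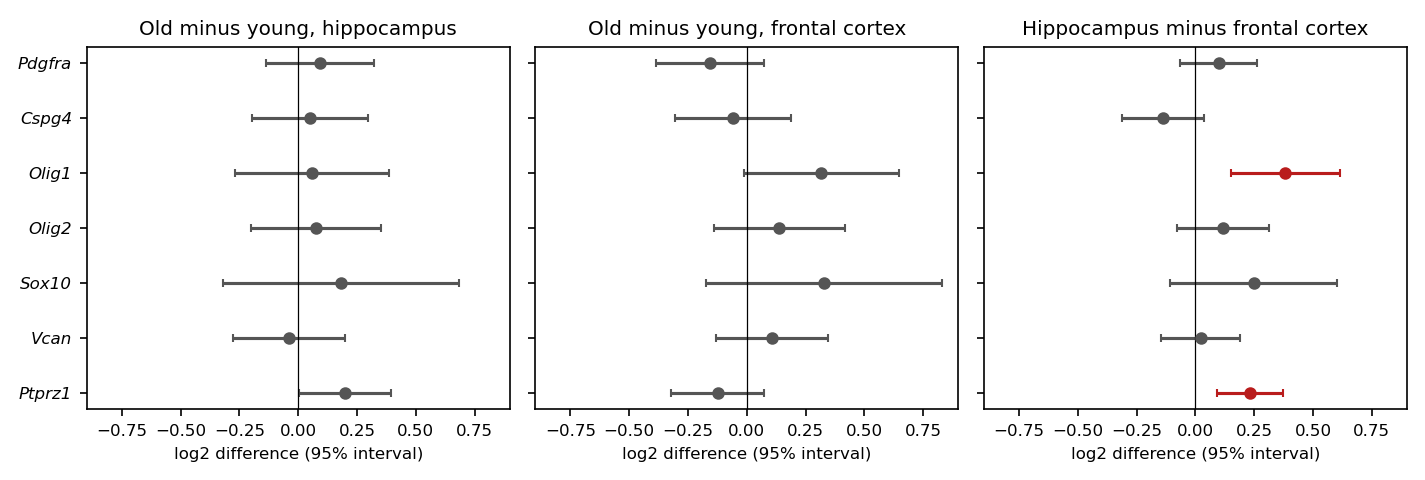
Log2 differences of the 7 tested genes for old minus young hippocampus, old minus young frontal cortex, and hippocampus minus frontal cortex over both ages, each with its 95% interval from limma (n = 4 arrays per group). Red marks genes called at an adjusted p under 0.05, which are Olig1 (0.38) and Ptprz1 (0.23) in the panel for regions, and there are none in the age panels.

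The arrays carry several spots for most of these genes, which allows a check within each array. Pdgfra, Cspg4 and Olig1 had 10 spots each, Olig2 4, Vcan 3, and Sox10 and Ptprz1 2 each. The deposited rows do not say which spots repeat the same probe and which target another stretch of the transcript. The median SD between spots of a gene within an array lay between 0.047 and 0.088 log2. The 2 dim spots of Olig2 averaged 5.28 and 5.35, near the negative controls, and a dim Vcan spot averaged 6.26, and these were left out.

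Spots of Olig1 gave the same sign throughout: all 10 were positive for age in hippocampus (0.011 to 0.14), for age in frontal cortex (0.26 to 0.36) and for region (0.21 to 0.38). Fitted spot by spot, 7 of the 10 Olig1 spots and both Ptprz1 spots (0.23 and 0.34) were called between regions by limma with adjustment over all spots. On brightest spots 28.8% of all genes were called between regions either way, and the share over all spots is not given here. All 10 Pdgfra spots were negative for age in frontal cortex, from -0.22 to -0.11, and all 10 were positive for region, from 0.0084 to 0.20. For age in hippocampus 7 of the 10 Pdgfra spots were negative, from -0.27 upward, while the brightest spot was the most positive at 0.094, and the mean of the 10 gave -0.048. Cspg4 spots were all negative for age in frontal cortex (-0.095 to -0.0039) and for region (-0.19 to -0.037), with 1 of the 10 called between regions. Spots of 1 gene are not replicates, since they share the RNA of each array.

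**Figure D3:**
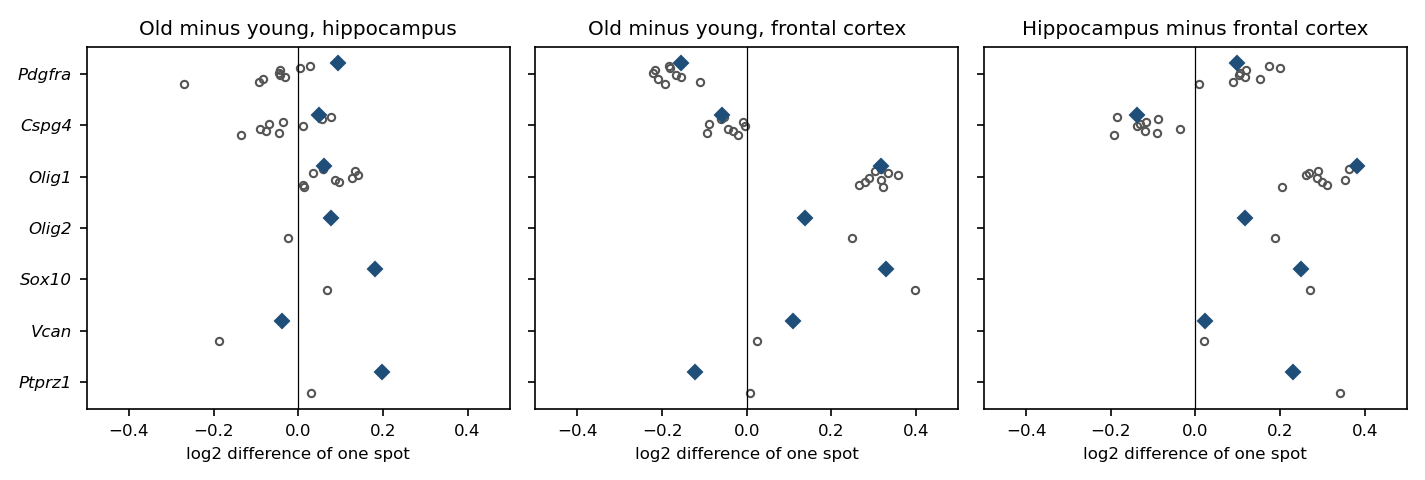
Log2 difference at each spot that passed the filter, by gene, for old minus young hippocampus, old minus young frontal cortex, and hippocampus minus frontal cortex. Filled diamonds are the brightest spot of a gene and open circles the others. The 10 Olig1 spots stay between 0.26 and 0.36 for age in frontal cortex, while the 10 Pdgfra spots lie between -0.22 and -0.11.

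How the genes varied within groups was read from pairs. Deviations of each array from its group mean were correlated over the 16 arrays for the 21 pairs of these genes and for each gene against 4 lists (myelin, astrocytes, striatal neurons, and meninges with pericytes and smooth muscle). That made 49 relations, each tested two-sided with 100000 permutations of arrays within groups and adjusted over the 49. Of these, 5 had an adjusted p under 0.05, and 2 of the 5 were pairs of these genes. These p-values treat arrays that share a letter code as independent, which the labels do not settle. The erythrocyte list stood at 1.58 and 1.78 on the AF arrays of hippocampus and frontal cortex and at -0.90 and -1.24 on the AG arrays. Its sign was also the same in both regions for the other codes, except AI (0.016 and -0.24). With the arrays of a code kept together over all 576 orders of the codes within ages, a test added after the data were seen, 0 of the 49 relations had an adjusted p under 0.05. The smallest adjusted p was then 0.0851, and the smallest p that this exact permutation test allows is 0.00174. Sox10 against the myelin list stood at that smallest p, and its adjusted p was still 0.0851. The count of 0 was thus largely set by the number of orders, and it cannot decide whether the relations hold.

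Olig1 and Sox10 varied together, with a Pearson r of 0.84 (permutation p = 0.00138, adjusted p = 0.0225) and a Spearman rho of 0.82 (permutation p = 0.00237, adjusted p = 0.0387). Without the 2 arrays farthest from the median of Olig1 the r was 0.77. It was 0.73 within hippocampus and 0.95 within frontal cortex. Olig2 and Ptprz1 gave an r of 0.64 (permutation p = 0.00447, adjusted p = 0.0438) and a rho of 0.65 (permutation p = 0.0083, adjusted p = 0.0813), and 0.55 without the 2 farthest arrays. Within hippocampus this r was 0.75 and within frontal cortex 0.48. Olig2 gave an r of 0.68 with Sox10 (permutation p = 0.0133, adjusted p = 0.0932) and of 0.58 with Olig1 (permutation p = 0.0436, adjusted p = 0.168). With codes kept together the exact permutation p was 0.00521 for Olig1 and Sox10 (adjusted p = 0.0851) and 0.00868 for Olig2 and Ptprz1 (adjusted p = 0.106).

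Olig1 and Sox10 also followed the myelin list, the mean over 26 genes of compact myelin and mature oligodendrocytes. For Olig1 the r was 0.84 (permutation p = 0.001, adjusted p = 0.0225), rho was 0.87 (permutation p = 0.00064, adjusted p = 0.0314), and r without the 2 farthest arrays was 0.81. For Sox10 the r was 0.90 (permutation p = 0.00086, adjusted p = 0.0225), rho was 0.88 (permutation p = 0.00143, adjusted p = 0.0350), and r without the 2 farthest arrays was 0.82. Within hippocampus and within frontal cortex the r was 0.80 and 0.90 for Olig1 and 0.82 and 0.95 for Sox10. With codes kept together the exact permutation p was 0.00347 for Olig1 and 0.00174 for Sox10 (adjusted p = 0.0851 for both). Olig2 gave an r of 0.56 with this list (permutation p = 0.0447, adjusted p = 0.168). Pdgfra against the myelin list gave an r of -0.25 (permutation p = 0.399, adjusted p = 0.698), which was 0.49 within hippocampus and -0.75 within frontal cortex.

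Pdgfra followed the list of 20 genes for meninges, pericytes and smooth muscle, with an r of 0.74 (permutation p = 0.00447, adjusted p = 0.0438) and a rho of 0.71 (permutation p = 0.0072, adjusted p = 0.0813). Without the 2 farthest arrays the r was 0.76, and it was 0.93 within hippocampus and 0.56 within frontal cortex. With codes kept together the exact permutation p was 0.0208 (adjusted p = 0.170). Cspg4, which pericytes also express, gave an r of 0.36 with this list (permutation p = 0.337, adjusted p = 0.635). Against the striatal neuron list, Sox10 gave 0.69 (permutation p = 0.0288, adjusted p = 0.157) and Pdgfra -0.61 (permutation p = 0.0126, adjusted p = 0.0932). The relation of Sox10 to the striatal list was 0.94 within frontal cortex and -0.31 within hippocampus. Olig1 gave an r of 0.54 with the striatal list (permutation p = 0.0427, adjusted p = 0.168), which was 0.89 within frontal cortex and -0.60 within hippocampus.

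**Figure D4:**
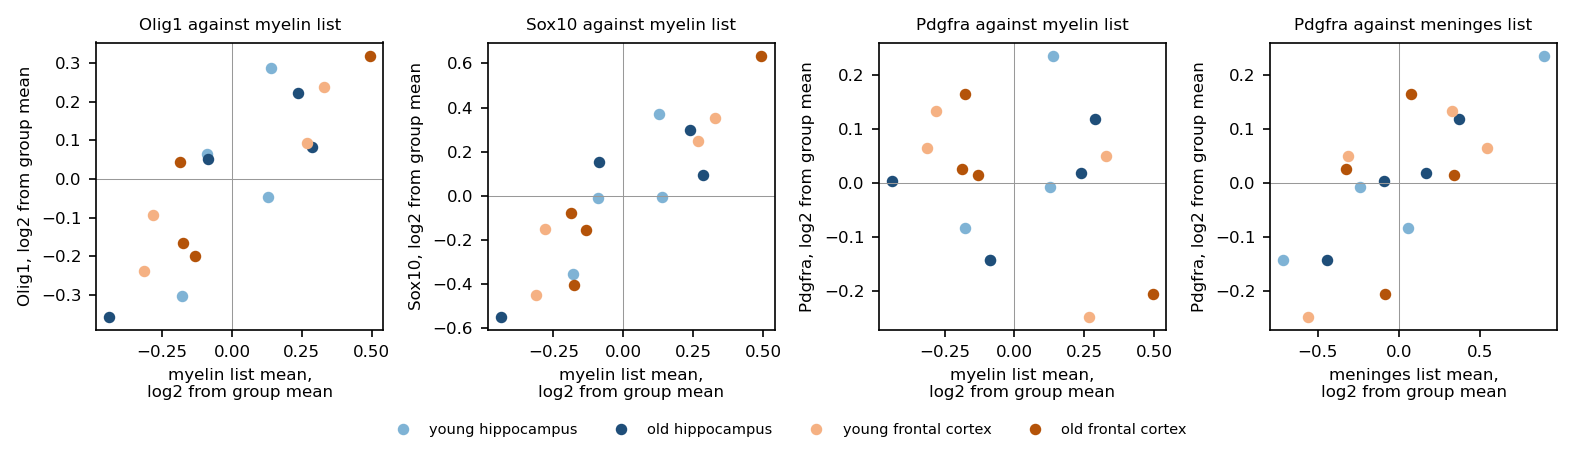
Deviation of each of the 16 arrays from its group mean, for Olig1, Sox10 and Pdgfra (vertical, log2) against the mean of the myelin list or of the list for meninges, pericytes and smooth muscle (horizontal, log2). Colours mark the 4 groups. Olig1 and Sox10 rise with the myelin list (r = 0.84 and 0.90), and Pdgfra rises with the meninges list (r = 0.74), while its r with the myelin list is -0.25.

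The genes whose deviations over the 16 arrays were most like each of these, among 10049 others, are given as a description without a test. For Pdgfra they were Uaca (r = 0.90), Olfml2a (0.87) and the lysosomal protease gene Ctsl (0.85). Cspg4 was most like Rpl19, a ribosomal protein gene (0.91), the amino acid transporter gene Slc7a5 (0.85) and Asb8 (0.84). Olig1 was most like the GTPase gene Rhog (0.93), the transporter gene Abca8a (0.91) and Tmem63a (0.90). Olig2 was closest to Fam83d (0.89), Ube2g2 (0.85) and Fah (0.85). Sox10 was closest to Gng8, Ppp1r14a and Cdc42ep2, with r of 0.95 for all 3. Vcan was closest to Serinc3 (0.83), Fam123a (0.83) and Zcchc9 (0.82). For Ptprz1 the closest was Ntsr2, a neurotensin receptor gene of the astrocyte list (0.91), and then Eif3f (0.82) and Zcchc24 (0.81). Against the whole astrocyte list Ptprz1 gave an r of 0.57 (permutation p = 0.0202, adjusted p = 0.124), which was 0.71 within hippocampus and 0.41 within frontal cortex.

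Other genes of precursors were read beside these 8. Of a list of 24 further precursor genes, 15 passed the filter. None of the 15 was called for age in either region (limma, against 0.0398% of all genes in hippocampus and 0.965% in frontal cortex). At an unadjusted p under 0.05 the list had 0 genes in hippocampus, against 6.77% of all genes. It had 1 higher and 1 lower in frontal cortex, against 22.2% of all genes. In frontal cortex the smallest p belonged to C1ql1, a C1q-like secreted protein, with -0.59 (limma adjusted p = 0.0772), and to Tnr, the matrix protein tenascin-R, with 0.43 (limma adjusted p = 0.0884). Between regions 3 of the 15 were called higher in hippocampus, namely the heparan sulfatase gene Sulf2 (0.33), Megf11 (0.37) and the endocytic adaptor gene Epn2 (0.27). The proteoglycan gene Cspg5 was called lower (-0.37). This is 4 of 15 against 28.8% of all genes.

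The PDGF list held 6 further ligand and receptor genes, 3 of which passed the filter, and 0 were called for age (limma). At an unadjusted p under 0.05 there was 1, Pdgfrl in frontal cortex, where 22.2% of all genes passed that threshold. Pdgfa, a ligand that Pdgfra binds, was lower in hippocampus than in frontal cortex, with a difference of -0.29 ± 0.066 log2 (SE, limma adjusted p = 0.00338). Pdgfrl, a receptor-like gene, differed by -0.57 with age in frontal cortex (limma adjusted p = 0.0654). Pdgfrl passed the filter only through young frontal cortex (6.78), so this direction is partly set by that filter. Among 9 cell cycle genes that passed, out of 20, 0 were called for age by limma. At an unadjusted p under 0.05 there were 0 in hippocampus, and 1 higher and 1 lower in frontal cortex. Of all genes, 6.77% in hippocampus and 22.2% in frontal cortex passed that threshold. Between regions Aurkb (0.97) and Ccnd2 (0.39) were called higher in hippocampus, 2 of 9 against 14.4% of all genes. Aurkb passed the filter only through old hippocampus (6.54), so its direction is partly set by that filter. The proliferation markers Mki67 and Top2a were among the genes of this list that did not pass.

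Of 25 genes that regulate oligodendrocyte differentiation and passed the filter, out of 30, Prmt5 was the 1 called for age: this arginine methyltransferase gene was lower in old frontal cortex, with -0.41 (limma adjusted p = 0.0404). Lower calls there made up 0.408% of all genes. Between regions 5 of the 25 were called higher in hippocampus and 2 lower, 7 in all against 28.8% of genes. The fibroblast growth factor receptor gene Fgfr1 (1.13), Zfp488 (0.50), Zeb2 (0.44), Ptpra (0.28) and Zfp24 (0.18) were higher. Of these, Zfp488 passed the filter only through young hippocampus (6.57), so its direction is partly set by that filter. Lingo1, an inhibitor of myelination (-0.62), and Id2, an inhibitor of helix-loop-helix factors (-0.26), were lower.

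The matrix list held lecticans, their partners and ligands of Ptprz1, and 13 of its 19 genes passed. None was called for age in either region (limma), and at an unadjusted p under 0.05 there were 0 in hippocampus and 2 higher and 2 lower in frontal cortex. In frontal cortex 22.2% of all genes passed that threshold. Between regions the link protein gene Hapln4 (1.15) and Cntn1, which encodes a Ptprz1 partner (0.28), were called higher in hippocampus. Hapln3 (-0.74), Cspg5 (-0.37), Csgalnact1 (-0.24) and Ptn, which encodes pleiotrophin (-0.23), were called lower, so that 6 of 13 were called against 28.8% of all genes.

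Later stages of the lineage were read as well. Of 17 genes of committed and newly formed oligodendrocytes, 0 were called for age by limma. At an unadjusted p under 0.05, 1 was lower in hippocampus, where 6.77% of all genes passed that threshold either way. In frontal cortex 3 were higher and 1 lower, where 22.2% of all genes passed it. Bcas1, which marks early myelinating cells, differed by 0.83 in frontal cortex (limma adjusted p = 0.0654). Between regions Bcas1 (0.47) and Gpr37 (0.38) were called higher in hippocampus and Prom1 (-0.49), Cyfip2 (-0.34), Tmem163 (-0.57) and Cemip2 (-0.32) lower, 6 of 17 against 28.8% of all genes. All 26 myelin genes had positive age differences in frontal cortex, with a median of 0.32 and 0 called by limma, 9 of them at an unadjusted p under 0.05 where 10.3% of all genes were. In hippocampus 17 of the 26 were positive, against 52.9% of all genes, with a median of 0.094 and 0 called (limma). There 1 of the 26 had an unadjusted p under 0.05, against 6.77% of all genes. Between regions all 26 were positive with a median of 0.35, and 5 were called higher against 14.4% of all genes: Car2 (0.73), Tf (0.71), Ndrg1 (0.38), Plekhb1 (0.38) and Enpp2 (1.46). Tf and Enpp2 are also expressed by the choroid plexus, whose own list had 9 of 12 genes called higher in hippocampus. Many of the 12, among them Folr1 and Otx2, passed the filter only through the hippocampus groups, which favours that direction. The part of choroid plexus in the values of Tf and Enpp2 was not tested. For meninges, pericytes and smooth muscle, 18 of 20 genes had negative age differences in frontal cortex, against 49.8% of all genes, with a median of -0.66. Of the 20, 0 were called (limma) and 7 were lower at an unadjusted p under 0.05, which 22.2% of all genes passed either way. Bmp7 and Nid1, which had the smallest p there, passed the filter only through the young groups, which favours that direction. How much of the values of Olig1, Sox10 and Pdgfra in frontal cortex moves with these lists was not tested beyond the relations above.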

How the data were processed

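Values were deposited as log2 signals, 1 column per sample. Arrays were quantified with Agilent Feature Extraction, per the submitters' processing notes. Background correction and normalization were among the steps not given in the sources used here. Values ran from 4.94 to 17.8, which fits a log2 scale, and the column of young hippocampus array Y had a median of 6.77. A deposited table of raw signals had 16 columns that match no sample by name and was used only for control spot names.

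Symbols of 39826 spots were updated by accession (RefSeq, GRCr8), 6078 kept the symbol of the array, and 17072 rows had no listed gene. Arrays were shifted to a common 75th percentile (9.42 to 9.44 before the shift). A gene's brightest spot was kept when at least 1 group mean was above 6.49, which is the 40th percentile of spot means. R 4.3.3 with limma 3.58.1 fitted 4 group means over 16 arrays (12 residual and 4.07 prior degrees of freedom, median residual SD 0.165), with two-sided p-values adjusted by Benjamini-Hochberg over 10056 genes. Precision is limited by how few arrays each group has. The procedure was tested on simulated data.

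Same-code arrays of the 2 regions correlated in their deviations with r between -0.17 and 0.28, and 3 of 8 codes matched best, so codes were not taken as pairs in the fits, and relations were also tested with codes kept together. Members and lists were chosen with earlier results of these data known. Text names each member, list genes called, up to 4 list genes of smallest p in a comparison described, and the 3 genes most like each member. Other names, such as Mki67, were chosen after values were seen. Alternatives covered scaling, filters, spot choice, variance settings, a title code block and arrays left out.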

Additional observations from a re-analysis of the deposited data

How the results depend on the processing

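No alternative changed the count of 0 called members for either age comparison or for their difference. Between regions 2 members were called under every alternative except without the Y and Z frontal cortex arrays, where 0 were. Without the AF and AG arrays of both regions the 2 were Olig1 and Sox10 (0.49, adjusted p = 0.0372, limma), with Ptprz1 at 0.24 (adjusted p = 0.0578). Over the 12 alternatives besides arrays left out singly, the adjusted p ranged from 0.0027 to 0.101 for Olig1 and from 0.0022 to 0.0601 for Ptprz1.

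The count of all genes called for age in frontal cortex, 97, was 47 with no filter, 45 with the 60th percentile filter, 29 with only the 8 arrays of the region, 26 without Y and Z, 2 without AF and AG, and 4 (without young array Z) to 739 (without old array AI) with single arrays left out. For age in hippocampus the count of 4 was 8 with the 60th percentile filter, 1 with only 8 arrays, 1 without hippocampus arrays AB and AI, 20 without AF and AG, and 1 to 7 with single arrays left out. The count for the difference of age effects was 0 to 1.

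Differences that were not called changed sign as follows. For age in hippocampus, the mean of spots gave -0.048 for Pdgfra and -0.026 for Cspg4. Without AF and AG, Cspg4 was -0.051 in hippocampus and Olig2 -0.040 in frontal cortex, and without AB and AI, Olig1 was -0.069 in hippocampus. The difference of age effects without AF and AG was 0.077 for Olig1, 0.25 for Olig2 and 0.33 for Sox10, and without Y and Z it was 0.059 for Olig2 and 0.15 for Sox10. With single arrays left out, age in hippocampus ranged from -0.056 to 0.13 for Cspg4, -0.041 to 0.18 for Olig1, -0.013 to 0.16 for Olig2 and -0.098 to 0.040 for Vcan. The difference of age effects ranged from -0.15 to 0.020 for Olig2 and -0.28 to 0.065 for Sox10, and the Vcan region difference from -0.015 to 0.053. The causes were not tested.

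With the title code as a replicate block (consensus correlation 0.051) members called stayed 0, 0, 0 and 2, and all genes called were 4, 95, 0 and 3005. Vcan was not tested under the 60th percentile filter. Gpr17, near the filter, is limited by its signal over background.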
